A study of Sus scrofa with 6 samples.

Results

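The genes described here are those of the cell division cycle, DNA replication and the mitotic spindle. They were chosen by symbol: cyclins A, B, D and E, genes named CDC, CDK, CDKN, CKS, MCM, ORC, RFC, KIF, CENP, AURK, BUB or PLK, the DNA polymerases alpha, delta and epsilon, and PCNA, TOP2A and MKI67. The rule found 119 probe sets for 85 genes, of 6765 genes that the array's annotation names by a probe set of their own, and each gene was read from its probe set with the highest mean signal. MKI67 had no such probe set, and 6 probe sets annotated to more than 1 gene were left out. Whole ovarian follicles were taken from gilts before puberty, sorted by their form and diameter into 3 stages titled primordial, middle and last, and their total RNA was extracted. Each stage had 2 Affymetrix arrays titled biological replicates, 6 in all. The labels name no breed, age or treatment, and they do not tie replicates to animals, so a p-value here reflects no more than the spread among these samples.

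A dividing cell licenses its replication origins in G1, when the origin recognition complex (ORC) and CDC6 load the MCM helicase, copies its DNA in S phase with polymerases held on the template by the PCNA clamp, and then builds a spindle under the Aurora and Polo-like kinases. Cyclins switch on the cyclin-dependent kinases (CDKs) that drive these steps, and CDK inhibitors such as p21 (CDKN1A) and p27 (CDKN1B) hold them back. In the ovary most dividing cells of a growing follicle are granulosa cells, while the oocyte stays arrested in meiosis and stores messages for the first divisions of the embryo.

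The stage names rest on the titles, since a separate description calls all 6 samples primordial. The cell type markers did not follow the names in a simple way. The summed signal of 10 oocyte genes on the array, of 16 listed, was 490 and 476 in the primordial arrays, 15868 and 18223 in the middle arrays and 810 and 741 in the last arrays. PADI6, an oocyte gene, had a signal of 3.2 and 3.3 in the primordial arrays. The summed signal of 10 immune genes, of 13 listed, was 20685 and 18769 in the primordial arrays, 1783 and 1319 in the middle arrays and 1909 and 5374 in the last arrays, in the same order of replicates. The summed signal of 11 granulosa genes, all on the array, was 50713 and 65172 in the primordial arrays, 31634 and 35951 in the middle arrays and 69917 and 65966 in the last arrays. Of the 8 tested, 1 rose (AMH) and 4 fell (INHA, NR5A2, FST and HSD17B1) in middle minus primordial, while FOXL2 was not tested and lay between 6.9 and 41.7 on every array. The summed signal of 6 stromal genes, of 8 listed, was 965 and 717 in the primordial arrays, 20022 and 12786 in the middle arrays and 16045 and 12982 in the last arrays. In the same order 6 theca genes summed to 6390 and 6021, 3390 and 4699, and 19793 and 22868. For 5 smooth muscle genes, of 6 listed, the sums were 4300 and 3503, 6660 and 7387, and 27604 and 27158. For 5 endothelial genes they were 1346.3 and 1440.5, 841.7 and 719, and 2155.3 and 2832.6. The part of these cells in members highest in the last arrays was not tested. As a sign of RNA quality, the actin control probe sets gave a log2 ratio of 3′ over 5′ signal of 3.55 and 3.20 in the primordial arrays, 4.93 and 4.19 in the middle arrays and 3.88 and 3.55 in the last arrays. The GAPDH control ordered the stages differently, with 3.42 and 2.68 in the primordial arrays, 3.28 and 2.78 in the middle arrays and 1.89 and 1.86 in the last arrays. In whole follicles, fewer cells of a type and less RNA per cell cannot be told apart.

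Signals are linear intensities that the authors scaled to a common trimmed mean on each array. Differences are on the log2(signal + 16) scale, where the added 16 shrinks those of dim genes. They are given ± the fitted standard error, from 2 arrays at each stage. A gene is said to have risen or fallen, or to be called, where limma's adjusted p was under 0.05, adjusted by Benjamini-Hochberg over all 14399 probe sets tested. Of the 85 genes, 79 passed the filter on dim probe sets. The 6 that did not were CDKN2B, CDKN2C, MCM4, CDC25C, KIF20A and CDC42EP2, with every signal at or below 129.5. None of these 6 was called in a fit without the filter.

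Between the middle and primordial arrays 22 of the 79 genes rose (27.8%) and 8 fell (10.1%). Over all 5432 genes tested, 22.9% rose and 22.5% fell. Of the genes that rose, 3 encode subunits of the origin recognition complex, 5 the clamp, its loader or polymerase subunits and 6 carry the symbols of cell cycle genes but mostly work elsewhere. The genes that fell were CDKN1A, CCND2, CKS2, PLK3, KIF2A, CDK2AP2, CDC42BPB and CDC42SE1. The median difference was 0.30 over the 79 genes, 0.06 over the 5432 genes and 0.22 over all probe sets tested. With each array centred on its median, 13 rose and 15 fell. Without primordial replicate 1, 14 rose and 5 fell, and without middle replicate 1, 12 rose and 4 fell. The number that rose was also 13 without primordial replicate 2 and without middle replicate 2.

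Between the last and middle arrays 7 genes rose (8.86%) and 6 fell (7.59%), against 8.8% and 7.23% of all genes tested. The median difference was 0.01 over the 79 genes and 0.02 over the 5432. With centred arrays 8 rose and 4 fell. The counts rest on the middle arrays, with 1 risen and 1 fallen without middle replicate 1, and 2 and 3 without middle replicate 2. The number that rose was 4 without either primordial array and 3 without last replicate 1. Between the last and primordial arrays 13 rose (16.5%) and 8 fell (10.1%), against 17.2% and 15.8% of all genes. The median was 0.30 over the 79 genes and 0.06 over the 5432, and with centred arrays 10 rose and 11 fell. Without primordial replicate 1 there were 7 risen and 2 fallen, without primordial replicate 2 there were 8 and 3, without last replicate 1 there were 8 and 4, and without last replicate 2 there were 28 and 5. By limma's F-test over the 3 stages, 33 of the 79 genes were called (41.8%), against 48.6% of all genes. That count was 20 without primordial replicate 1, 19 without primordial replicate 2 and 19 without middle replicate 1. The 3 comparisons share arrays, so their counts are not independent of each other.

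**Figure D1:**
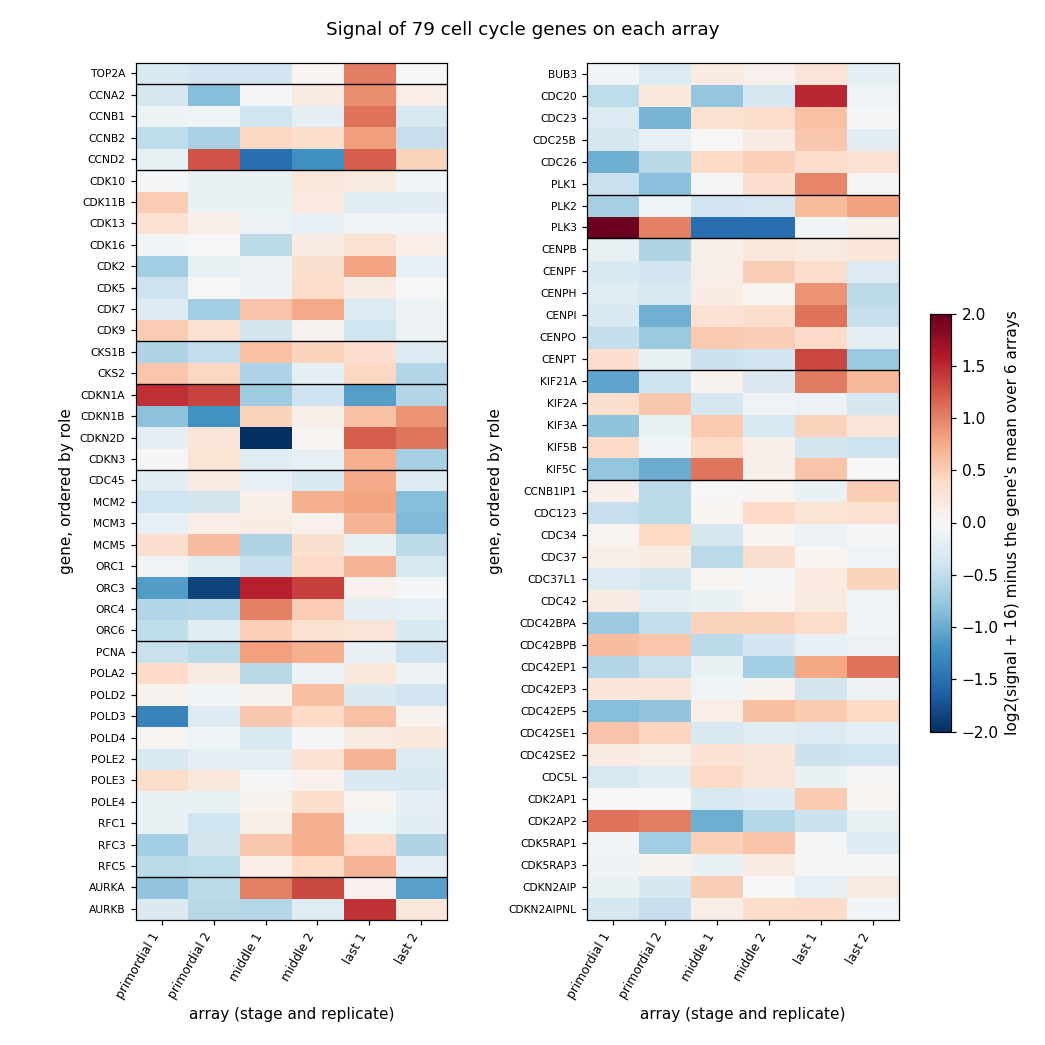
Heat map of the 79 tested genes (rows, by role, with black lines between roles) on the 6 arrays (columns). Colour gives log2(signal + 16) minus the gene's mean over the 6 arrays, clipped at -2 and 2; PCNA, ORC3 and AURKA are reddest on the middle arrays, CDKN1A on the primordial arrays, and many mitotic genes on last replicate 1 alone.

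**Figure D2:**
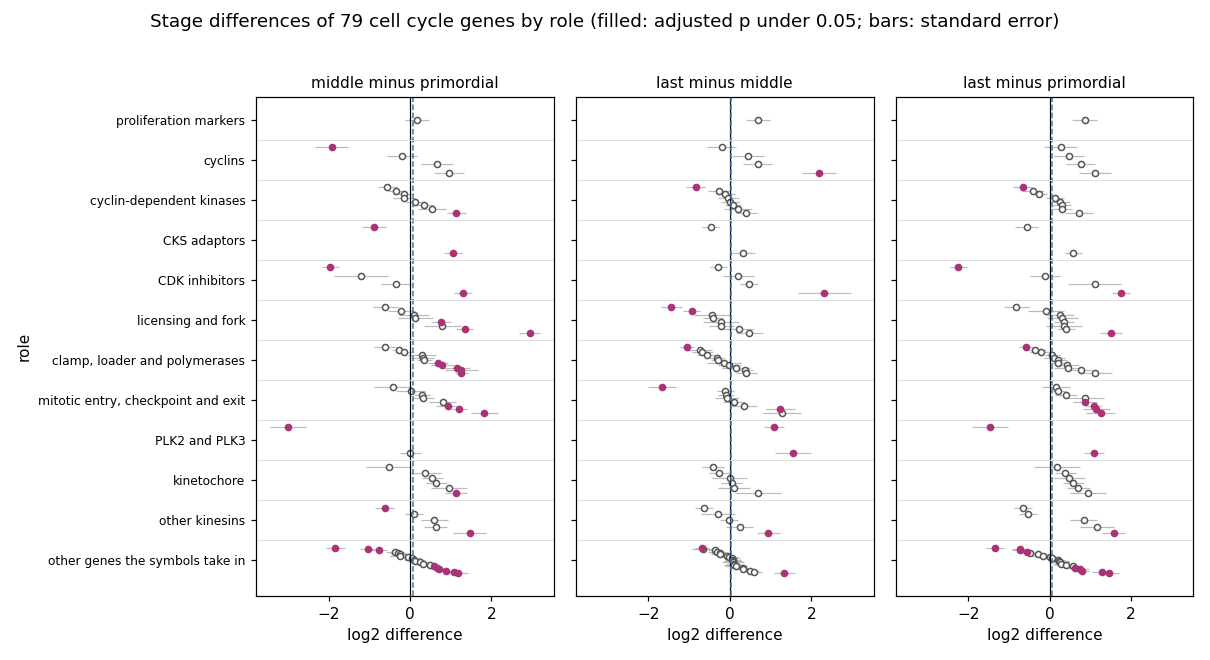
Log2 differences between stages for the 79 tested genes, 1 point per gene, in rows by role, with bars for the standard error of the fit. Filled points passed limma's adjusted p of 0.05, and the dashed line is the median of all 5432 genes; ORC3 is the rightmost point and PLK3 the leftmost in middle minus primordial.

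Of the origin and helicase genes, 3 of 8 tested rose in middle minus primordial (37.5%) and none fell, against 22.9% and 22.5% of all genes. ORC3, a subunit of the origin recognition complex, had a signal of 366 and 212 in the primordial arrays, 2395 and 2117 in the middle arrays and 857 and 790 in the last arrays. The 3 stages did not overlap, with the middle arrays highest. The difference was 2.94 ± 0.26 for middle minus primordial (limma adjusted p = 4.39e-05), a 7.69-fold difference, -1.43 ± 0.26 for last minus middle (adjusted p = 0.00587) and 1.51 ± 0.26 for last minus primordial (adjusted p = 0.00269). The fall was lost without middle replicate 1 (-1.35, adjusted p = 0.0773). ORC4, another subunit of the complex, had 902 and 913 in the primordial arrays, 2774 and 1938 in the middle arrays and 1187 and 1220 in the last arrays. It rose by 1.34 ± 0.21 in middle minus primordial (adjusted p = 0.000935) and differed by -0.94 ± 0.21 in last minus middle (adjusted p = 0.0165). That fall was lost without middle replicate 1 (-0.68, adjusted p = 0.133), without last replicate 1 (-0.92, 0.053) and with the mean of the gene's probe sets (-0.64, 0.0791). A dimmer ORC4 probe set also rose in middle minus primordial, by 1.01 (adjusted p = 0.0293).

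ORC6, which helps to load the helicase, had 461 and 563 in the primordial arrays, 929 and 820 in the middle arrays and 799 and 533 in the last arrays. Its rise of 0.76 ± 0.25 in middle minus primordial (limma adjusted p = 0.03) was lost without each of the primordial and middle arrays in turn (0.62 to 0.90, adjusted p = 0.0581 to 0.159), with centred arrays (0.52, 0.117) and with quantile normalization (0.60, 0.0786). The summed oocyte markers were highest in the arrays where ORC3, ORC4 and ORC6 were highest. The part of the oocyte in these levels was not tested. ORC1, the largest subunit, MCM2, MCM3 and MCM5, subunits of the helicase, and CDC45, which joins the helicase when it fires, were not called in any of the 3 comparisons. MCM5 had 898 and 1087 in the primordial arrays, 462 and 890 in the middle arrays and 632 and 486 in the last arrays, and differed by -0.61 ± 0.31 in middle minus primordial (limma adjusted p = 0.128) and by -0.82 ± 0.31 in last minus primordial (adjusted p = 0.0673). The first was -1.07 without middle replicate 2, and it was called with centred arrays (-0.85, 0.0472). The second was called with the 4 arrays compared alone (-0.82, 0.0352) and with centred arrays (-0.95, 0.0416). MCM2 had 525 and 536 in the primordial arrays, 750 and 1151 in the middle arrays and 1218 and 378 in the last arrays. Without last replicate 2 its last minus primordial was 1.18, against 0.35 with all arrays. Without last replicate 1 its last minus middle was -1.26, against -0.44. Middle minus primordial was 0.79 (limma adjusted p = 0.175). MCM3 had 175 and 217, 219 and 211, and 326 and 100 in the same order of stages.

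Of the clamp, clamp loader and polymerase genes, 5 of 11 tested rose in middle minus primordial (45.5%) and none fell, against 22.9% and 22.5% of all genes. PCNA, the sliding clamp of DNA synthesis, had a signal of 2238 and 2079 in the primordial arrays, 5388 and 5005 in the middle arrays and 2744 and 2287 in the last arrays. Both middle arrays were above every other array, and the last and primordial arrays were close. PCNA rose by 1.26 ± 0.17 in middle minus primordial (limma adjusted p = 0.000389) and fell by 1.05 ± 0.17 in last minus middle (adjusted p = 0.0035). Last minus primordial was 0.21 ± 0.17 (adjusted p = 0.362). The fall of PCNA was the 1 call of 13 in last minus middle that stood under all 16 alternatives. The oocyte markers and the actin 3′ over 5′ ratio were also highest in the middle arrays, while the GAPDH ratio was not, and the part of the oocyte and of RNA quality in the PCNA level was not tested.

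RFC3, a small subunit of the clamp loader, had 414 and 515 in the primordial arrays, 984 and 1114 in the middle arrays and 880 and 438 in the last arrays. The middle arrays were above all others, last replicate 1 was next, and last replicate 2 lay within the range of the primordial arrays. RFC3 rose by 1.15 ± 0.31 in middle minus primordial (limma adjusted p = 0.0132), and its dimmer probe set by 0.89 (adjusted p = 0.0403). RFC5 rose by 0.79 ± 0.28 (adjusted p = 0.0435), RFC1, the large subunit, by 0.68 ± 0.25 (adjusted p = 0.0481) and POLD3, an accessory subunit of polymerase delta, by 1.26 ± 0.41 (adjusted p = 0.0314). These are near the threshold. Without single primordial or middle arrays the call was lost for RFC3 (without primordial replicate 1 or either middle array, adjusted p = 0.0607 to 0.0838), RFC5 (without any of the 4, 0.66 to 0.92, 0.0973 to 0.196), RFC1 (without either primordial array or middle replicate 2, 0.39 to 0.82, 0.0784 to 0.281) and POLD3 (without primordial replicate 1 or either middle array, 0.73 to 1.33, 0.0967 to 0.194). With centred arrays RFC5, RFC1 and POLD3 were lost too (0.55, 0.44 and 1.02). POLD3 was dim in the primordial arrays, at 31.6 and 83.9. Its brighter middle and last arrays helped it to pass the filter. In the fit without the filter its rise was lost (limma adjusted p = 0.0587), as were those of RFC5 and RFC1 (0.0655 and 0.0704).

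POLE3, a histone-fold subunit of polymerase epsilon, had 2474 and 2217 in the primordial arrays, 1859 and 2043 in the middle arrays and 1550 and 1551 in the last arrays. It fell in last minus primordial (-0.59 ± 0.17, limma adjusted p = 0.0284), a call lost without each primordial and each last array (-0.67 to -0.51, adjusted p = 0.0684 to 0.164). POLA2, POLD2, POLD4, POLE2 and POLE4, further subunits of the replicative polymerases, were not called in any comparison. With quantile normalization POLA2 (-0.95, adjusted p = 0.0191, against -0.61) and POLE4 (0.52, 0.0388) were called in middle minus primordial, as POLA2 was with centred arrays (-0.85, 0.0255).

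**Figure D3:**
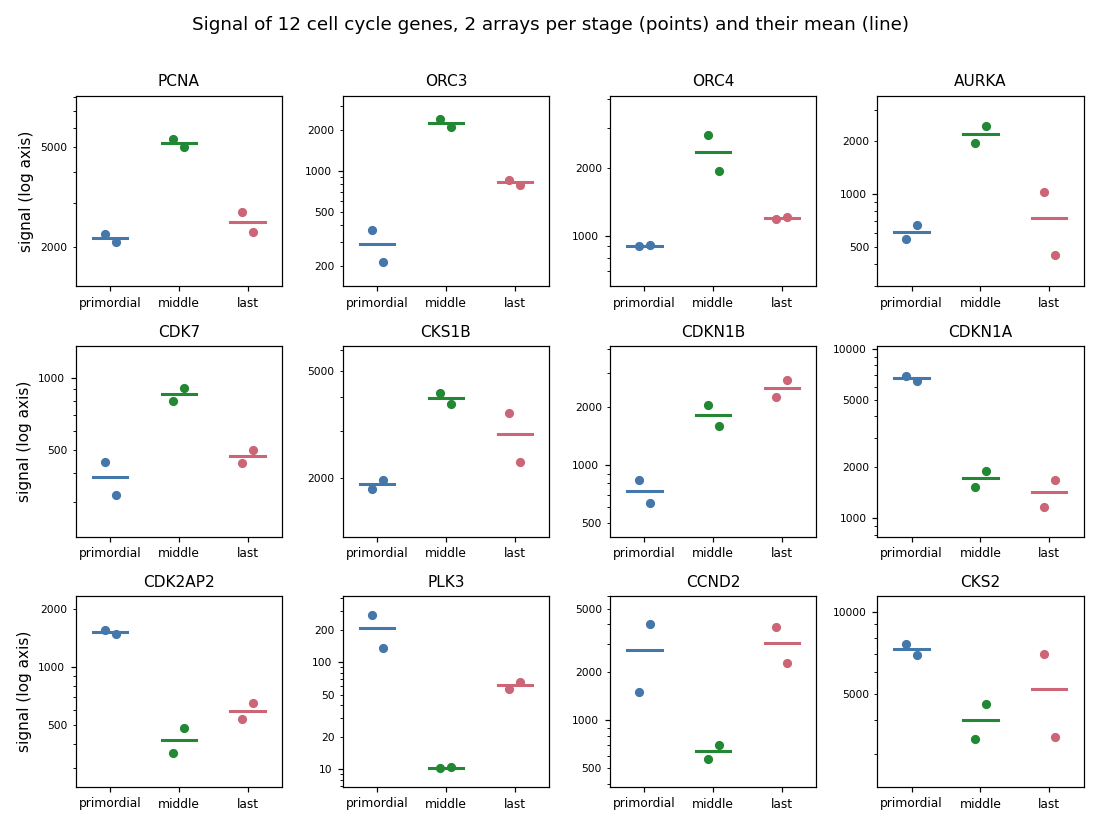
Signal of 12 cell cycle genes on a log axis, with points for the 2 arrays of each stage and a line for their mean. PCNA, ORC3, ORC4, AURKA and CDK7 have both middle arrays above all other arrays, CDKN1A, CDK2AP2 and PLK3 have both primordial arrays above all others, and both CCND2 middle arrays are below all others.

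Of 8 cyclin-dependent kinases tested, CDK7 and CDK9 were called in a comparison of 2 stages. By limma's F-test over the 3 stages 1 of the 8 was called (12.5%), against 48.6% of all genes. CDK2, which drives S phase, CDK5, CDK10, CDK11B, CDK13 and CDK16 were not called in any of the 3 comparisons, with adjusted p from 0.13 to 0.981. CDK2 was 1.21 in last minus primordial without last replicate 2, against 0.73 with all arrays. CDK13 was called in middle minus primordial with centred arrays (-0.59, limma adjusted p = 0.0326, against -0.35). CDK7, which activates other CDKs and is part of the transcription factor TFIIH, had 443 and 323 in the primordial arrays, 797 and 910 in the middle arrays and 440 and 498 in the last arrays. The middle arrays did not overlap with those of either other stage. CDK7 rose by 1.14 ± 0.23 in middle minus primordial (limma adjusted p = 0.0033), and last minus middle was -0.84 ± 0.23 (adjusted p = 0.035). That fall was lost without each middle and each last array (-0.94 to -0.75, adjusted p = 0.0611 to 0.146) and with centred arrays (-0.73, 0.0542). CDK9, a kinase of transcription elongation, had 1422 and 1232 in the primordial arrays, 769 and 1041 in the middle arrays and 747 and 920 in the last arrays. It fell in last minus primordial (-0.66 ± 0.22, adjusted p = 0.0472), a call lost without either primordial array or last replicate 1 (-0.77 to -0.52, adjusted p = 0.107 to 0.216).

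CKS1B and CKS2, small proteins that bind CDKs, were called in opposite directions in middle minus primordial. CKS1B, which also helps to mark p27 for destruction, had 1813 and 1968 in the primordial arrays, 4148 and 3772 in the middle arrays and 3507 and 2301 in the last arrays. CKS2 had 7637 and 6958, 3399 and 4564, and 6977 and 3460 in the same order. CKS1B rose by 1.06 ± 0.21 (limma adjusted p = 0.00339) and CKS2 differed by -0.89 ± 0.29 (adjusted p = 0.0321), with no overlap between the 2 stages for either gene. The CKS1B call stood under all alternatives. The CKS2 call was lost without each of the primordial and middle arrays (-1.10 to -0.67, adjusted p = 0.0586 to 0.211) and with quantile normalization (-0.61, 0.112).

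Cyclin D2 was the 1 cyclin of 4 tested that was called. The share of cyclins called by limma's F-test was 25%, against 48.6% of all genes. CCND2, a G1 cyclin that mouse granulosa cells need in order to proliferate in response to follicle-stimulating hormone, had a signal of 1507 and 4015 in the primordial arrays, 575 and 703 in the middle arrays and 3867 and 2274 in the last arrays. Both middle arrays were below every other array, and the arrays of the other stages overlapped. It differed by -1.93 ± 0.41 in middle minus primordial (limma adjusted p = 0.00446) and by 2.19 ± 0.41 in last minus middle (adjusted p = 0.007). Both calls were lost without middle replicate 1 (-1.79, adjusted p = 0.0519, and 2.05, adjusted p = 0.0953). The summed granulosa markers were also lowest in the middle arrays, where INHA, an inhibin subunit, differed by -2.20 ± 0.26 from the primordial arrays and NR5A2, a nuclear receptor, by -4.56 ± 0.24. In last minus middle INHA differed by 2.26 ± 0.26 and NR5A2 by 5.84 ± 0.24. Other granulosa markers went the other way. Of the 8 tested, 4 rose in last minus middle and 2 fell, AMH (-3.40 ± 0.31) and FSHR (-1.06 ± 0.23), and AMH rose in middle minus primordial (2.41 ± 0.31). The part of granulosa cells in the CCND2 level was not tested. CCNB1, a cyclin of mitosis, had 2106 and 2123 in the primordial arrays, 1706 and 1973 in the middle arrays and 4802 and 1810 in the last arrays. CCNB2 had 321 and 290, 623 and 597, and 838 and 329, and CCNA2, the cyclin of S phase and G2, had 70.5 and 44.2, 90.7 and 107, and 191 and 103, in the same order of stages. For these 3 genes last replicate 1 was the highest array. Their smallest adjusted p were 0.0533 for CCNA2 in last minus primordial, 0.0539 for CCNB2 in middle minus primordial and 0.234 for CCNB1 in last minus middle. With the replicate number as a block, CCNB2 was called in middle minus primordial (0.96, limma adjusted p = 0.0417). Without last replicate 2, CCNA2 was 1.52 in last minus primordial, against 1.12 with all arrays. CCNB1 was then 1.38 in last minus middle, against 0.68, and 1.18 in last minus primordial, against 0.48. CCNB2 in last minus primordial was then 1.41, against 0.76.

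The inhibitors CDKN1A and CDKN1B were called in opposite directions. CDKN1A, or p21, an inhibitor induced by p53 and by stress, had a signal of 6964 and 6470 in the primordial arrays, 1538 and 1905 in the middle arrays and 1171 and 1682 in the last arrays. The primordial arrays were above all others, and the middle and last arrays overlapped. It differed by -1.96 ± 0.21 in middle minus primordial (limma adjusted p = 0.000124) and by -2.24 ± 0.21 in last minus primordial (adjusted p = 0.000155). CDKN1B, or p27, which accumulates in cells that leave the cycle, had 835 and 634 in the primordial arrays, 2060 and 1595 in the middle arrays and 2256 and 2782 in the last arrays. It rose by 1.30 ± 0.22 in middle minus primordial (adjusted p = 0.00146) and by 1.76 ± 0.22 in last minus primordial (adjusted p = 0.000624), with no overlap between the stages compared. All 4 calls stood under every alternative. Last minus middle was not called for CDKN1A (adjusted p = 0.394) or CDKN1B (adjusted p = 0.19).

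The summed immune markers were highest in the arrays where CDKN1A was highest, and each of the 7 tested immune genes fell in middle minus primordial and in last minus primordial. The part of immune cells in the CDKN1A level was not tested. The summed stromal markers were lowest in the primordial arrays, as CDKN1B was. DCN (decorin) was higher by 5.33 ± 0.23 in middle minus primordial and 4.65 ± 0.23 in last minus primordial. Of the 6 stromal genes, 4 rose in the first comparison and 5 in the second, and none fell. COL3A1, a collagen gene, was called in neither, at -0.84 ± 0.68 and 0.17 ± 0.68. The summed smooth muscle markers were also lowest in the primordial arrays. Of the 5 smooth muscle genes, 3 rose and 1 fell in the first comparison, and 5 rose in the second. The part of stromal and smooth muscle cells in the CDKN1B level was not tested. CDKN2D, an inhibitor of CDK4 and CDK6, had 96.5 and 135 in the primordial arrays, 8.0 and 117 in the middle arrays and 279 and 252 in the last arrays. It rose in last minus middle (2.32 ± 0.65, limma adjusted p = 0.039). Middle replicate 1 decided the size, since the difference was 1.08 without it. Without middle replicate 2, middle minus primordial was -2.44, against -1.21. The last arrays, its highest, helped CDKN2D to pass the filter, and the rise was lost in the fit without the filter (limma adjusted p = 0.0787). The call was also lost without each array of the other stages (2.25 to 2.39, adjusted p = 0.0515 to 0.116). CDKN3, a phosphatase that removes the activating phosphate of CDKs, had 1660 and 1979, 1405 and 1458, and 2698 and 1020 in the order of stages and was not called. Its differences turned on which last array was left out. Last minus middle was 0.91 without last replicate 2, and last minus primordial was -0.82 without last replicate 1, against 0.21 and -0.12 with all arrays.

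Of the genes of mitotic entry, the spindle checkpoint and mitotic exit, 3 of 8 tested rose in middle minus primordial (37.5%) and none fell, against 22.9% and 22.5% of all genes. In last minus middle 1 rose and 1 fell (12.5% each, against 8.8% and 7.23%). In last minus primordial 4 rose (50%) and none fell, against 17.2% and 15.8%. AURKA, a kinase of the centrosome and spindle, had a signal of 550 and 666 in the primordial arrays, 1965 and 2430 in the middle arrays and 1020 and 445 in the last arrays. The middle arrays were above all others. AURKA rose by 1.82 ± 0.34 in middle minus primordial (limma adjusted p = 0.0022) and differed by -1.67 ± 0.34 in last minus middle (adjusted p = 0.0102). The fall was lost without each middle array (-1.82 and -1.52, adjusted p = 0.0744 and 0.0827) and with the mean of the gene's probe sets (-0.61, adjusted p = 0.116). A dimmer AURKA probe set, with a signal of 127 to 249, was not called in any comparison. The oocyte markers were highest in the same arrays as AURKA, and their part was not tested.

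AURKB, the Aurora kinase of the chromosomes and the cleavage furrow, had a different order of stages, with 405 and 334 in the primordial arrays, 331 and 417 in the middle arrays and 1381 and 585 in the last arrays. It rose by 1.24 ± 0.36 in last minus middle (limma adjusted p = 0.0429) and by 1.26 ± 0.36 in last minus primordial (adjusted p = 0.0252), with both last arrays above all others. Last replicate 1 decided the size. Without it the differences were 0.63 (adjusted p = 0.18) and 0.65 (adjusted p = 0.13). The first call was lost without each other array but last replicate 2 too (1.08 to 1.40, adjusted p = 0.0572 to 0.256), and the second without either primordial array (1.12 and 1.39, 0.12 and 0.063) or middle replicate 2 (1.26, 0.0502). PLK1, a kinase of mitotic entry, had 241 and 180 in the primordial arrays, 328 and 427 in the middle arrays and 674 and 341 in the last arrays. It rose by 1.14 ± 0.33 in last minus primordial (adjusted p = 0.0261). The PLK1 difference was 0.67 without last replicate 1 (adjusted p = 0.153), 1.34 without primordial replicate 1 (0.0508) and 0.95 without primordial replicate 2 (0.139).

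Of the anaphase-promoting complex, which tags cyclins and securin for destruction, CDC26 had 756 and 1019 in the primordial arrays, 1982 and 2080 in the middle arrays and 1915 and 1854 in the last arrays. CDC23, another subunit, had 276 and 170, 422 and 435, and 513 and 326 in the same order. In both genes the primordial arrays were below all others. CDC26 rose by 1.20 ± 0.20 in middle minus primordial (limma adjusted p = 0.00124) and by 1.09 ± 0.20 in last minus primordial (adjusted p = 0.00362), and both calls stood under every alternative. CDC23 rose by 0.93 ± 0.30 (adjusted p = 0.0282) and 0.87 ± 0.30 (adjusted p = 0.049). The first was lost without primordial replicate 2 (0.61, adjusted p = 0.192) and either middle array (0.95 and 0.91, 0.111 and 0.113), and the second without primordial replicate 2 (0.55, 0.285), last replicate 1 (0.56, 0.249) and either middle array (0.0846 and 0.0848). With centred arrays both were lost (0.69 and 0.74). CDC20, the activator of the complex, had 344 and 574 in the primordial arrays, 281 and 384 in the middle arrays and 1443 and 467 in the last arrays. CDC20, CDC25B, a phosphatase that switches on CDKs, and BUB3, of the spindle checkpoint, were not called, with adjusted p of 0.0868, 0.271 and 0.262 at the lowest. Without last replicate 2, CDC20 was 2.08 in last minus middle, against 1.28 with all arrays, and 1.66 in last minus primordial, against 0.87. CDC25B was then 0.79 in last minus primordial, against 0.41.

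PLK2 and PLK3 are Polo-like kinases that respond to stress and growth factors. PLK3 had a signal of 278 and 137 in the primordial arrays, 10.3 and 10.5 in the middle arrays and 56.6 and 66.0 in the last arrays. The 3 stages did not overlap. Middle minus primordial was -3.01 ± 0.45 (limma adjusted p = 0.000645), a size that the added 16 limits in the middle arrays. PLK3 passed the filter, set at a mean signal of 91.32, only through its primordial arrays, with a mean of 93.1 over all arrays. In the fit without the filter this fall stood, while the rise in last minus middle was lost (limma adjusted p = 0.0577). Last minus primordial was -1.46 ± 0.45 (adjusted p = 0.0326) and last minus middle 1.55 ± 0.45 (adjusted p = 0.0423). The rise in last minus middle was lost without each of the 6 arrays in turn (1.46 to 1.64, adjusted p = 0.0549 to 0.156) and with a pseudocount of 64 (0.75, adjusted p = 0.0969), and last minus primordial without primordial replicate 1 (-0.99, 0.288) or either last array (-1.37 and -1.55, 0.12 and 0.0773). PLK2 had 246 and 383, 305 and 314, and 633 and 714 in the order of stages, with both last arrays above all others. It rose by 1.08 ± 0.25 in last minus middle (adjusted p = 0.0187) and by 1.09 ± 0.25 in last minus primordial (adjusted p = 0.0104). The first was lost without either middle array (1.06 and 1.10, adjusted p = 0.125 and 0.0793) or last replicate 2 (0.99, 0.0688), and the second without primordial replicate 1 (0.79, 0.0787).

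Of 6 kinetochore genes, CENPO alone was called. The share of kinetochore genes called by limma's F-test was 16.7%, against 48.6% of all genes. CENPO, of the inner kinetochore, had 164 and 135 in the primordial arrays, 347 and 338 in the middle arrays and 312 and 205 in the last arrays. It rose by 1.12 ± 0.27 in middle minus primordial (limma adjusted p = 0.00813), a call lost without primordial replicate 2 (0.99, adjusted p = 0.053) and middle replicate 1 (1.10, 0.0549). CENPF, a large coiled-coil protein of late cell cycle, CENPB, which binds centromeric DNA, and CENPH, CENPI and CENPT, of the inner kinetochore, were not called in any comparison. CENPI had 401 and 248 in the primordial arrays, 613 and 637 in the middle arrays and 1075 and 359 in the last arrays, and CENPT had 185 and 130, 102 and 107, and 388 and 79.1. CENPH, CENPI and CENPT were highest on last replicate 1, and CENPH and CENPT were lowest of all 6 arrays on last replicate 2. Without last replicate 2, last minus primordial was 1.19 for CENPH, 1.72 for CENPI and 1.23 for CENPT, against 0.47, 0.95 and 0.19 with all arrays. CENPT was then 1.74 in last minus middle, against 0.70. In middle minus primordial CENPI was 0.95 (limma adjusted p = 0.1) and CENPF 0.65 (0.0588). TOP2A, the topoisomerase that untangles chromosomes before mitosis, had 1983 and 1878, 1869 and 2533, and 5008 and 2466, with an adjusted p of 0.055 in last minus primordial. Without last replicate 2, TOP2A was 1.37 in last minus primordial, against 0.86 with all arrays, and 1.20 in last minus middle, against 0.69.

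Among the kinesins, the mitotic motor KIF20A stayed under the filter, at 6.9 to 91.0. The other 5 are motors or microtubule regulators that are not limited to mitosis. KIF21A, which limits microtubule growth, had 219 and 350 in the primordial arrays, 500 and 385 in the middle arrays and 987 and 747 in the last arrays. It rose by 1.58 ± 0.28 in last minus primordial (limma adjusted p = 0.003), a call that stood under every alternative, and by 0.94 ± 0.28 in last minus middle (adjusted p = 0.046), lost without each middle and last array (0.75 to 1.14, adjusted p = 0.052 to 0.2). KIF5C, a cargo motor best known from neurons, had 48.1 and 39.0, 213 and 101, and 146 and 94.3 in the order of stages. It rose by 1.46 ± 0.41 in middle minus primordial (adjusted p = 0.0168), lost without middle replicate 1 (0.98, 0.142) or primordial replicate 2 (1.35, 0.0729). KIF5C passed the filter with the help of its brighter middle and last arrays. Its rise stood in the fit without the filter (limma adjusted p = 0.0329). KIF2A, which takes microtubules apart, had 500 and 580, 310 and 379, and 364 and 311. It differed by -0.63 ± 0.23 in middle minus primordial (adjusted p = 0.0453), lost without each primordial and middle array (-0.77 to -0.49, 0.0622 to 0.207). KIF5B and KIF3A, motors of cargo and cilia transport, were not called at their brightest probe set. A dimmer KIF3A probe set rose in middle minus primordial (1.27, adjusted p = 0.0128) and last minus primordial (1.24, adjusted p = 0.021).

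The symbol rule also took in 21 genes that share a name with the cell cycle genes but mostly work elsewhere. Of the 20 tested, 6 rose and 3 fell in middle minus primordial (30% and 15%, against 22.9% and 22.5% of all genes). In last minus middle 1 rose and 1 fell (5% each, against 8.8% and 7.23%), and in last minus primordial 5 rose and 4 fell (25% and 20%, against 17.2% and 15.8%). CDK2AP2, a CDK2-associated protein, had 1556 and 1482 in the primordial arrays, 358 and 480 in the middle arrays and 533 and 651 in the last arrays. It differed by -1.83 ± 0.22 in middle minus primordial (limma adjusted p = 0.000225) and by -1.34 ± 0.22 in last minus primordial (adjusted p = 0.00227), and both calls stood under every alternative. CDC42EP1, an effector of the small GTPase CDC42, had 257 and 286, 357 and 240, and 689 and 854. It rose by 1.34 ± 0.25 in last minus middle (adjusted p = 0.00718; without middle replicate 2, 1.07 and 0.053) and by 1.45 ± 0.25 in last minus primordial (adjusted p = 0.00288). CDC42EP5, of the same effector family, had 196 and 204, 402 and 561, and 532 and 488, with the primordial arrays below all others, and rose by 1.18 ± 0.24 (adjusted p = 0.00313) in middle minus primordial and 1.28 ± 0.24 (adjusted p = 0.00366) in last minus primordial.

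The kinases CDC42BPA and CDC42BPB, which act below CDC42 on myosin, were called in opposite directions. CDC42BPA had 648 and 764 in the primordial arrays, 1501 and 1488 in the middle arrays and 1392 and 1036 in the last arrays, and CDC42BPB had 1164 and 1117, 519 and 572, and 672 and 691. In middle minus primordial they differed by 1.07 ± 0.21 and -1.04 ± 0.19 (limma adjusted p = 0.00307 and 0.00212), and in last minus primordial by 0.76 ± 0.21 and -0.73 ± 0.19 (adjusted p = 0.0235 and 0.0185). The calls in last minus primordial were lost without last replicate 1 or either primordial array (0.55 to 0.87, adjusted p = 0.0601 to 0.137, and -0.76 to -0.70, 0.0625 to 0.0973). CDC42 itself had 2923 and 2305, 2358 and 2692, and 2951 and 2441 at its brightest probe set and was not called (adjusted p of 0.786 and above). Its next probe set, with 2932 and 3030, 1172 and 1386, and 1752 and 1807, fell in middle minus primordial (-1.22, adjusted p = 0.000592) and last minus primordial (-0.74, adjusted p = 0.0121), so the gene's probe sets disagree.

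CDC123, an assembly factor of translation initiation, rose in middle minus primordial (0.71 ± 0.19, limma adjusted p = 0.0143) and last minus primordial (0.79 ± 0.19, adjusted p = 0.0135), both lost without either primordial array (0.67 to 0.82, adjusted p = 0.0568 to 0.0789), the first also without middle replicate 2 (0.54, 0.0863). CDC5L, a component of the spliceosome, CDK5RAP1, a tRNA-modifying enzyme, and CDKN2AIPNL rose in middle minus primordial by 0.59 ± 0.17, 0.89 ± 0.26 and 0.65 ± 0.21 (adjusted p = 0.0191, 0.0191 and 0.027). Each of these 3 calls was lost without at least 3 of the 4 arrays compared (adjusted p = 0.0559 to 0.153) and with centred arrays. CDC5L's dimmer probe set rose by more, 2.29 (adjusted p = 0.000106). CDC42SE1, a small CDC42 effector, fell in middle minus primordial (-0.77 ± 0.20, adjusted p = 0.0116) and last minus primordial (-0.73 ± 0.20, adjusted p = 0.0224), lost without primordial replicate 1 or middle replicate 1 in the first (0.0746 and 0.0594) and without last replicate 1 or either primordial array in the second (0.0757 to 0.121). CDC42SE2 fell in last minus middle and last minus primordial (adjusted p = 0.0292 and 0.0373) and CDC37L1, a relative of the chaperone cofactor CDC37, rose in last minus primordial (0.63 ± 0.21, adjusted p = 0.044). Each of these 3 calls was lost in the absence of either array of both stages compared (adjusted p = 0.0603 to 0.176). CCNB1IP1, CDC34, CDC37, CDC42EP3, CDK2AP1, CDK5RAP3 and CDKN2AIP were not called in any comparison.

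The 2 last arrays stood apart from each other in the genes of replication and mitosis. Of the 79 genes, 15 (19.0%) were more than 2-fold higher on last replicate 1 than on last replicate 2 and 0 were more than 2-fold lower, against 1.68% and 3.55% of all 5432 genes. No test was made, as this sets 1 array against another. In the primordial arrays 0 of the 79 genes were more than 2-fold higher and 2 more than 2-fold lower on replicate 1, against 0.884% and 1.56% of all genes, and in the middle arrays 0 and 1, against 0.755% and 1.53%. The 15 genes were CENPT, MCM2, CDC20, MCM3, CENPI, CENPH, CCNB1, CDKN3, CCNB2, AURKB, AURKA, CDC45, TOP2A, CKS2 and ORC1. CENPT differed most, by 2.09 on the log2 scale, followed by MCM2 at 1.65, with 1218 on last replicate 1 and 378 on last replicate 2, and CDC20 at 1.59.

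By role, last replicate 1 was the higher array for 8 of 8 genes of mitotic entry, checkpoint and exit, 4 of 4 cyclins, 5 of 6 kinetochore genes, 7 of 8 origin and helicase genes and 9 of 11 clamp, loader and polymerase genes. It was also higher for 5 of 5 tested kinesins, 5 of 8 cyclin-dependent kinases, 2 of 4 CDK inhibitors, 2 of 2 CKS genes and TOP2A, and for 0 of 2 of PLK2 and PLK3. For the other genes that the symbols took in, which mostly work elsewhere, it was higher for 8 of 20. Over the 79 genes it was higher for 70.9%, and over all 5432 genes for 51.8%. The median of replicate 1 minus replicate 2 was 0.26 over the 79 genes and 0.01 over all genes tested. In 22 of the 79 genes (27.8%) the last arrays lay further apart than the highest and lowest stage means, against 15.5% of all genes. The summed immune markers were lower on last replicate 1, at 1909 against 5374 on last replicate 2. Of 6 genes listed for theca cells, LHCGR, a gonadotropin receptor gene, had 3367 on replicate 1 and 7409 on replicate 2. CYP11A1 had 1610 and 1872. The others were higher on replicate 1, with STAR at 2487 and 1626, HSD3B1 at 1769 and 1466, CYP17A1 at 553 and 536 and INSL3 at 10006 and 9958. The summed stromal markers were 16045 and 12982, and the summed oocyte markers 810 and 741. The part of these cells in the difference was not tested. In a fit without either last array this difference between the 2 last arrays does not enter the p-values.

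**Figure D4:**
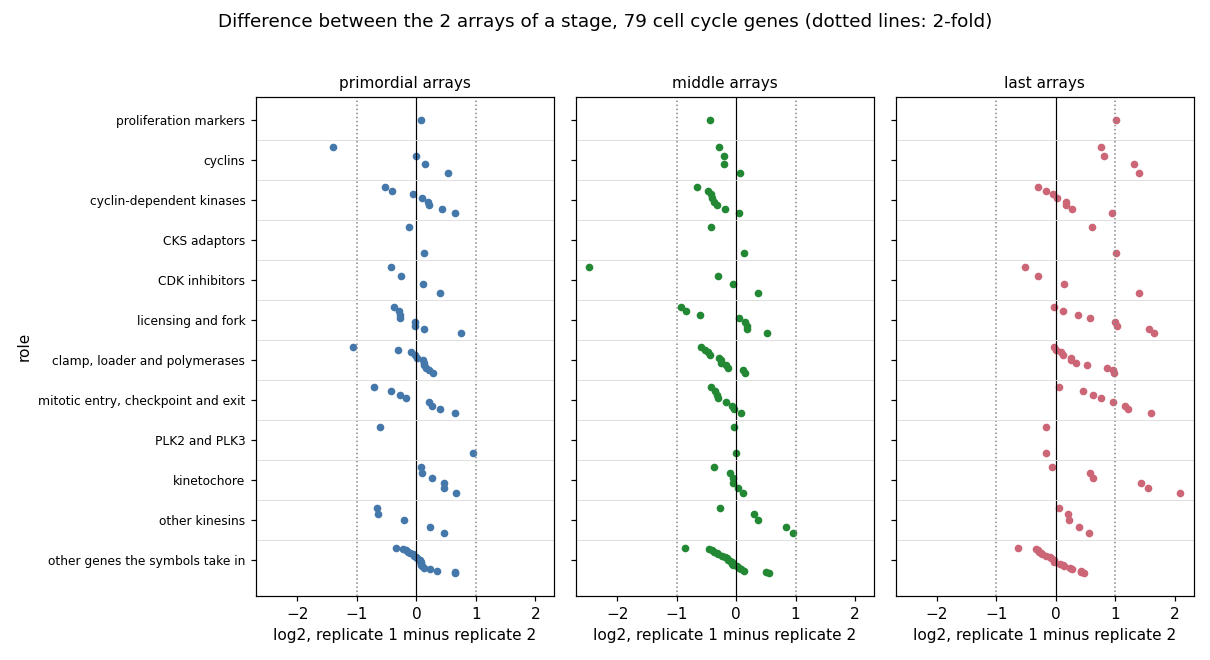
Replicate 1 minus replicate 2 within each stage, on the log2(signal + 16) scale, for the 79 tested genes in rows by role, 1 point per gene. Dotted lines mark a 2-fold difference; in the last arrays 15 points lie past the right line and 0 past the left one, with points of the cyclins, kinetochore, origin and helicase and mitotic entry groups among them.

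Other cell cycle genes, outside the symbol rule, were read from a list of 132 genes, of which 69 are on the array and 62 were tested. The list was chosen with earlier results of these data known. In middle minus primordial 18 rose and 11 fell (29.0% and 17.7%, against 22.9% and 22.5% of all genes). In last minus middle 10 rose and 5 fell (16.1% and 8.06%, against 8.8% and 7.23%), and in last minus primordial 18 rose and 6 fell (29.0% and 9.68%, against 17.2% and 15.8%). Their median differences were 0.22, -0.03 and 0.52. DNMT1, the maintenance DNA methyltransferase, had 1732 and 1723 in the primordial arrays, 9040 and 8255 in the middle arrays and 2043 and 1409 in the last arrays, and rose by 2.31 ± 0.20 in middle minus primordial (limma adjusted p = 4.15e-05). TFDP2, a partner of the E2F factors, had 100 and 135, 976 and 750, and 165 and 190, and RBL2, the pocket protein p130 of resting cells, had 864 and 448, 3326 and 2857, and 1933 and 1824. WEE2, an oocyte kinase that is also on the oocyte list, had 27.7 and 50.9, 1682 and 1846, and 101 and 89.3. These 4 genes were highest in the arrays with the highest oocyte markers, whose part was not tested.

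The 11 genes of this list that fell in middle minus primordial were MYC, WEE1, GADD45A, GADD45B, GADD45G, BTG1, BTG2, MYBL2, RRM2, DBF4 and H2AFZ. MYC, a transcription factor of growth, had 4508 and 4278 in the primordial arrays, 621 and 566 in the middle arrays and 570 and 505 in the last arrays, and middle minus primordial was -2.86 ± 0.19 (limma adjusted p = 1.14e-05). WEE1, which holds CDK1 in check, had 5206 and 6272, 1142 and 1044, and 1504 and 1439. GADD45A, a stress gene, had 11312 and 8021, 1799 and 1663, and 3755 and 5724, and BTG2, an antiproliferative gene, had 1958 and 2346, 626 and 941, and 6019 and 5313. MYC and WEE1, like CDKN1A, were highest in the primordial arrays, where the immune markers were highest too, and the part of immune cells was not tested. On the last arrays 11 of the 62 genes of the list (17.7%) were more than 2-fold higher on replicate 1 and 0 more than 2-fold lower. BIRC5, or survivin, of the chromosomal passenger complex, had 1821 and 562, CDCA3 had 1762 and 688, and UBE2C, the ubiquitin-conjugating enzyme of the anaphase-promoting complex, had 5316 and 2432.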

How the data were processed

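RNA of 6 samples was hybridised to 1-colour porcine Affymetrix arrays. GCOS, Affymetrix's array software, is named in the submitters' processing notes, with its version not given in the sources used here. For each probe set and array, 1 linear intensity was deposited. The authors scaled each array, since the mean of the deposited intensities without the lowest and highest 2% is 500.1 on every array. No detection calls were used. Values ran from 0.1 to 47773, and 12.8% to 18.0% per array were 16 or less, so the added 16 limits folds of dim genes. The number of arrays limits the precision.

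The 124 control probe sets were left out, then the 40% of the rest with the lowest mean signal (under 91.32). Genes are named from the platform annotation where a probe set has 1 symbol (10069 probe sets, against 198 with several and 13732 with none). Gene identifiers of all 85 members were found in RefSeq's table under the same symbol. limma 3.58.1 in R 4.3.3 was fitted to log2(signal + 16) of all 6 arrays without a replicate block (3 residual and 6.33 prior degrees of freedom, eBayes with trend), for the 3 pairwise contrasts and an F-test. Tests were two-sided. The fit was tested on simulated data. Python 3.11.15, pandas 2.3.3, numpy 2.4.6 and matplotlib 3.10.9 read tables and drew figures. The genes to name were the called members, up to 10 in each direction of a comparison, and a fixed set of defining genes; further called members were named for completeness. The members, the roles and the lists were chosen with earlier results of these data known. Alternatives were other pseudocounts (1 and 64), filters (none and 60%), scalings, fits and each array left out. No genome coordinates or sequences were used here.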

Additional observations from a re-analysis of the deposited data

How the results depend on the processing

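Of 64 calls of members in the 3 comparisons, 23 stood under every alternative that could be run (16, or 15 for PLK3, which the 60% filter leaves out), 41 were lost in at least 1, and 0 changed sign. The 23 were 14 of 30 in middle minus primordial, 1 of 13 in last minus middle and 8 of 21 in last minus primordial. Calls were lost most often without middle replicate 1 or either primordial array, 27 each, then without middle replicate 2 (23), last replicate 1 (18) and last replicate 2 (10). Other settings lost 16 (no filter), 14 (centred arrays), 14 (no intensity trend), 13 (quantile normalization), 7 (only the 4 arrays compared), 4 (pseudocount 1), 2 (mean of probe sets) and 1 (pseudocount 64). Counts of members called moved by more than 1.5 times in these cases. With centred arrays 13 rose and 15 fell in middle minus primordial. With no filter 3, and without the intensity trend 4, rose in last minus middle, and without the trend 5 fell in last minus primordial. Leaving out each array in turn gave 12 to 27 risen and 4 to 9 fallen in middle minus primordial, 1 to 10 and 1 to 6 in last minus middle, 7 to 28 and 2 to 9 in last minus primordial, and 19 to 47 with any stage difference. These fits held 1 array at a stage, so the spread between that stage's 2 arrays did not enter their p-values. The causes of the changes were not tested. The labels do not say whether the replicate numbers pair the samples. Across probe sets, the deviations of replicate 1 from the stage means correlated by 0.0593 between middle and primordial. They correlated by -0.0476 between last and middle and by 0.0318 between last and primordial. Such small correlations show no large shift shared by replicate number, but cannot show whether samples were paired. With the replicate number as a block, 21 rose and 7 fell, 5 and 5, and 13 and 6 in the order of comparisons above, 29 had a stage difference, and 9 of 64 calls were lost. Among 12 members with several tested probe sets, the calls differed between probe sets for 3, 2 and 3 in that order, with 0 in opposite directions.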
